A study of Mus musculus with 12 samples.

Results

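The genes described here make cholesterol and the lipids of the sebaceous gland. The set names 33 genes: 18 enzymes of cholesterol synthesis, 3 regulators, 5 genes of fatty acid synthesis and 7 genes of sebaceous lipid. A gene was taken as measured where at least 2 arrays read a probe of its name well above background. Of the 33 genes, 32 passed, beside 24106 genes in all. Acat2 was not among the gene names and was not analysed here. The probe used for each of the 32 genes was well above background on 12 of 12 arrays. Of the 67 probes that carry a member's name, 64 were kept. The dimmest kept probe passed on 4 arrays and the brightest probe left out on 1.

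Mouse ear skin was profiled on 12 one-colour arrays, as untreated skin and as skin taken 4 h after 1 application of 62.5 mg of a cream with 5% imiquimod (IMQ). Imiquimod is a small molecule that activates the nucleic acid receptor TLR7 and is used in mice to bring on psoriasis-like skin inflammation. All mice were C57BL/6J. Wild-type (WT) mice were set beside single knockouts of Tlr7 (Tlr7-/-), Tlr9 (Tlr9-/-) and Card14 (Card14-/-) and the double knockout Tlr7-/-Tlr9-/-. TLR9 senses DNA, and CARD14, a scaffold for NF-kB signalling in keratinocytes, has been tied to psoriasis. Each genotype had 1 untreated array. IMQ skin had 1 array in WT, Tlr7-/- and Tlr9-/- and 2 arrays in Tlr7-/-Tlr9-/- and Card14-/-, which makes 5 untreated and 7 IMQ arrays. RNA was pooled from 6 to 8 mice per group. The labels do not say whether a repeat array is a second pool, so the spread between repeat arrays may be technical. That spread gives the p-values within single genotypes and for differences from WT. P-values for the average over genotypes and for Tlr7 dependence measure instead how the effect of IMQ varies between genotypes. No skin treated with cream alone was analysed here, so imiquimod, its cream and the handling of the ear cannot be told apart. The ages of the mice, and how the knockouts were made, are not given in the sources used here.

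Cholesterol is built from acetyl groups through mevalonate, squalene and lanosterol. The transcription factor SREBP2, the product of Srebf2, switches these genes on when sterols run low, and SREBP1, the product of Srebf1, does so mainly for fatty acid synthesis. INSIG proteins hold both factors back when sterols are plentiful. Sebaceous glands open into the hair follicle and secrete sebum, a mixture of wax esters, triglycerides, cholesterol esters and squalene that coats skin and hair.

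Promoters were read first, because SREBP factors act there together with NF-Y, which binds the CCAAT box. RefSeq windows on GRCm38.p6, from 250 bases before to 50 bases after an annotated start, were found for 26 of the 33 genes. Fdps, Fads1, Fdft1, Sqle, Mc5r, Elovl3 and Scd1 were not matched. The letters CCAAT, on either strand, stood in a window of 21 of the 26 genes (80.8%), against 41.1% of all 27025 genes with a window. Among the sterol genes the count was 16 of 17, and among the sebaceous genes 2 of 4 (Awat2 and Soat1). The other motifs were rarer. The full sterol regulatory element, a 10-base motif, was in no member window and in 0.0999% of all genes. Its 8-base core CACCCCAC was in Acat2 and Hmgcs1 and in 3.30% of all genes, and the E-box CACGTG was in Dhcr7, Hsd17b7, Insig1 and Sc5d and in 8.09% of all genes. A match describes the letters in a window and no binding was measured.

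The 150 bases before the start are shown for 6 genes whose transcripts changed, in lower case with CCAAT, or its reverse complement ATTGG, in capitals. Cyp51, Mvd and Soat1 rose after IMQ, and Srebf1, Srebf2 and Dgat2l6 fell. Srebf1 has 3 windows, of which the one with a match in this stretch is shown.
Cyp51 (chr5:4104698-4104847, strand -): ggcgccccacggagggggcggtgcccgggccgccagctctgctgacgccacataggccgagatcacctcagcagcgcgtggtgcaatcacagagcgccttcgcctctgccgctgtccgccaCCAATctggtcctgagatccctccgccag
Mvd (chr8:122443423-122443572, strand -): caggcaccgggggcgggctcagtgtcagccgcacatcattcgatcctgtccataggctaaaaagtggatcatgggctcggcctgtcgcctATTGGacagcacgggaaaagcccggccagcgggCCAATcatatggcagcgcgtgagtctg
Soat1 (chr1:156474329-156474478, strand -): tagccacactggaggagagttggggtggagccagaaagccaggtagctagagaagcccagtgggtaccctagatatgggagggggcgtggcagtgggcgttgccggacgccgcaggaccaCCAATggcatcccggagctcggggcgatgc
Srebf1 (chr11:60210472-60210621, strand -): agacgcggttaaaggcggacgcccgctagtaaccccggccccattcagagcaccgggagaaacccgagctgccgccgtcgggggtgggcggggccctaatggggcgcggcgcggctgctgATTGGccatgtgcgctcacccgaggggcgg
Srebf2 (chr15:82147119-82147268, strand +): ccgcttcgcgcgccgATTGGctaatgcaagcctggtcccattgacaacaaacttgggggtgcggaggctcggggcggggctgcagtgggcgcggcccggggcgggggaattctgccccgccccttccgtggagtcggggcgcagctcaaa
Dgat2l6 (chrX:100524688-100524837, strand +): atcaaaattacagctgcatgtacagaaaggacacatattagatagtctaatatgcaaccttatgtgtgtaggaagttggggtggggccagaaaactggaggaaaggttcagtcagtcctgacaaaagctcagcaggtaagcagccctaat
Dgat2l6 holds no CCAAT in its whole window, whereas the 5 other stretches hold 1 or 2. Genes with the box stand among both those that rose and those that fell.

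Levels are log2 signals after quantile normalization, and a response is IMQ minus untreated on that scale. Between repeat arrays the members had a median SD of 0.0226, against 0.0473 over all genes. Before normalization the 75th percentile of signal was 1070 to 1236 on untreated and 527 to 779 on IMQ arrays, and 60.1% to 65.7% of spots were well above background. The number of arrays limits the precision. The deleted genes were read first. Tlr7 lay at 4.03 to 5.85 on the 5 arrays labelled as lacking it and at 7.36 to 8.12 on the other 7. Card14 lay at 9.63 to 9.89 on its 3 knockout arrays and at 10.83 to 11.65 on the other 9. Tlr9 lay at 10.95 to 11.33 on the 5 arrays labelled as lacking it and at 11.05 to 11.39 elsewhere, so its probe does not check those labels. Keratin markers of the labelled skin were high on every array, with a list mean of 16.09 to 16.64 over 7 of 8 keratinocyte markers, Krt5 not being among the names. Arrays lay on 2 slides. One slide held all 5 untreated arrays together with IMQ skin of WT, Tlr7-/- and Tlr9-/-, and the other held the 4 remaining arrays.

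The first question was which genes responded to IMQ on average over the 5 genotypes. In skin 4 h after the cream, 5 members rose (Soat1, Cyp51, Elovl3, Mvd and Pmvk) and 4 fell (Dgat2l6, Awat2, Srebf2 and Srebf1). These are 28.1% of the 32 members, against 26.3% of all genes tested. The share that rose was 15.6% against 10.4%, and the share that fell 12.5% against 15.9%. The members' share called thus lay near that of all genes. The median response of the members was 0.06, against -0.08 over all genes. In pooled bulk skin, fewer cells of a type and less RNA per cell cannot be told apart. With limma and genotype as a block, the call was a Benjamini-Hochberg adjusted p under 0.05 over all genes. With arrays scaled to their 75th percentile in place of quantile normalization, 7 members were called higher and 3 lower. These are 31.2% of the members, against 26.5% of all genes in that setting.

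**Figure D1:**
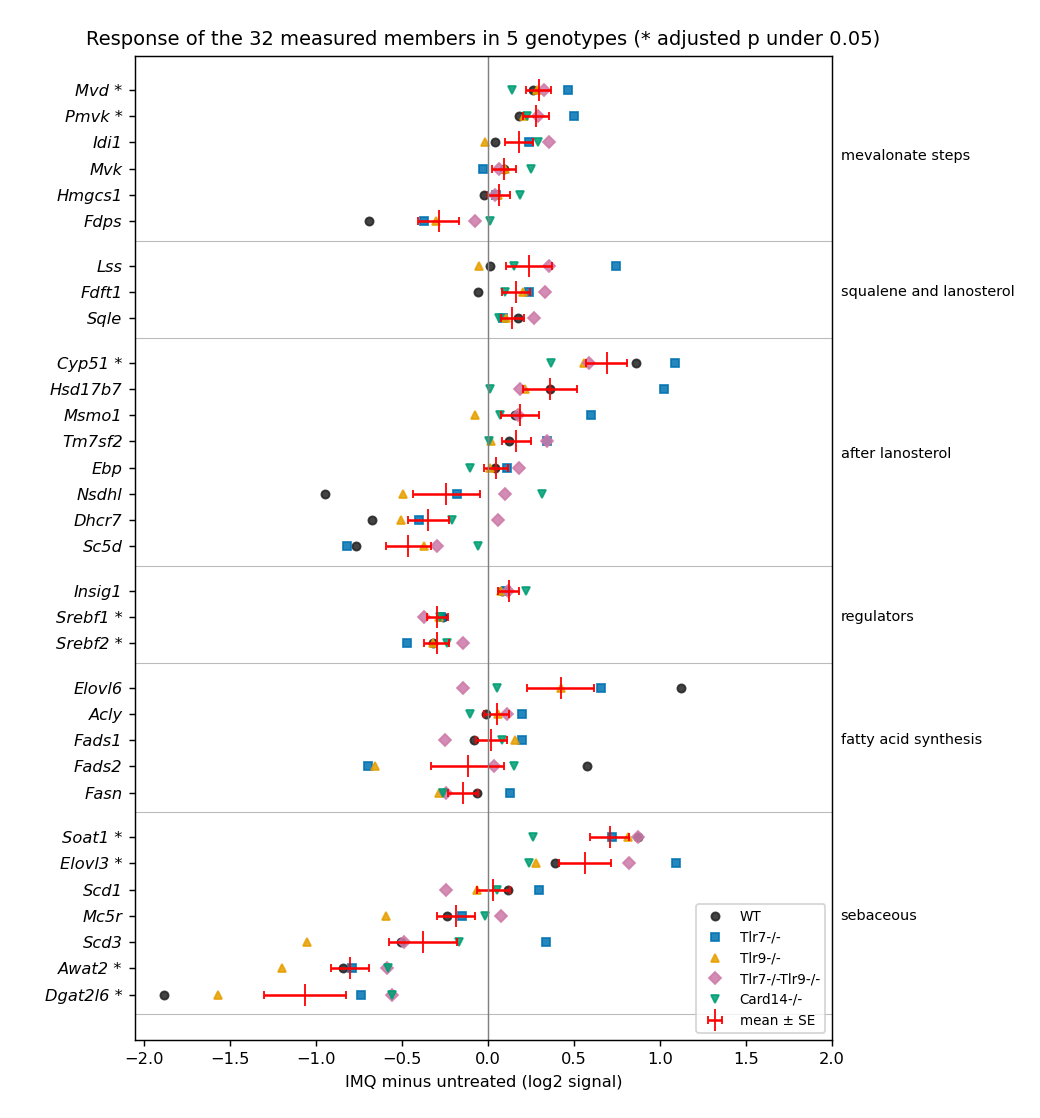
Response to IMQ (IMQ minus untreated, log2 signal, x axis) of the 32 measured members, by role. Symbols are the 5 genotypes, red bars the mean ± moderated SE of the limma fit (n = 5), and asterisks mark the 9 members past an adjusted p of 0.05. Soat1 and Cyp51 lie to the right and Awat2 and Dgat2l6 to the left of 0 in every genotype, and Dgat2l6 runs from -1.88 to -0.56.

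Separation of the arrays gave a similar picture. All 7 IMQ arrays lay above all 5 untreated arrays in Cyp51, Soat1 and Elovl3, against 8.5% of all genes, and below them in Srebf1, Awat2 and Dgat2l6, against 13.4%. These 6 members are 18.8% of the set, against 21.9% of all genes. The response had 1 sign in all 5 genotypes in 14 members (43.8%), 9 higher and 5 lower, against 41.2% of all genes.

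The calls rested on 5 genotype pairs, and the number of members called was lower with any 1 pair left out, as was that of all genes. Of the members 9.38% were called without WT, against 13.5% of all genes, and 9.38% without Tlr7-/-, against 11.1%. Without Tlr9-/- the share was 3.12% against 5.74%, without Tlr7-/-Tlr9-/- 12.5% against 14.5%, and without Card14-/- 21.9% against 22%. These shares are 3, 3, 1, 4 and 7 members. Awat2 was called in all 5 of these fits, and Cyp51 and Soat1 in all but the one without Tlr9-/-, where they had adjusted p-values of 0.0569 and 0.0571 at responses of 0.72 and 0.68. In WT, Tlr7-/- and Tlr9-/-, whose array pairs share a slide, 2 members rose and 4 fell, which is 18.8% against 24.8% of all genes. With slide as a further block over all arrays, 7 rose and 9 fell, 50% of the members against 49.9% of all genes. That fit counted each repeat array on its own, though repeats may be technical. In it only WT, Tlr7-/- and Tlr9-/- tell IMQ from slide. With repeat arrays counted singly and no slide block, 40.6% of the members were called, against 39.6% of all genes.

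The first enzymes of the pathway turn acetyl-CoA into the isoprenoid farnesyl diphosphate. Of the 6 measured genes of these steps 2 rose, 4 were not called, and the median response was 0.14. Here and in the groups that follow, counts stand beside 10.4% of all genes that rose and 15.9% that fell. In what follows, levels are given in the order WT, Tlr7-/-, Tlr9-/-, Tlr7-/-Tlr9-/- and Card14-/-, and the last 2 genotypes have 2 values each in IMQ skin. Mvd, which makes isopentenyl diphosphate from mevalonate diphosphate, read 11.30, 11.31, 11.42, 11.38 and 11.25 in untreated skin. In IMQ skin Mvd read 11.56, 11.77, 11.70, then 11.69 and 11.71, then 11.37 and 11.41. Each genotype was higher with IMQ, but the Card14-/- arrays with IMQ lay within the untreated range. The response was 0.30 ± 0.07 (SE, n = 5; adjusted p = 0.0345 in limma), a 1.23-fold rise.

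Pmvk, the kinase 1 step earlier, was brighter. It read 14.27, 14.10, 14.37, 14.32 and 14.15 in untreated skin and 14.45, 14.60, 14.57, 14.61 and 14.62, 14.39 and 14.36 in IMQ skin. Only the second Card14-/- array with IMQ lay within the untreated range, just below the highest untreated value. The response was 0.28 ± 0.08 (SE, n = 5; adjusted p = 0.0430 in limma).

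Hmgcs1, the synthase that makes HMG-CoA, moved least in this group. Untreated skin read 15.71, 15.85, 15.82, 15.81 and 15.62, and IMQ skin 15.69, 15.90, 15.88, 15.86 and 15.85, 15.77 and 15.83. The 2 sets overlapped, and the response of 0.06 ± 0.06 (SE, n = 5) was not called (adjusted p = 0.486 in limma). The value of this very bright gene turned on the scaling. It was 0.31 with 75th percentile scaling (adjusted p = 0.0411) and 0.21 in the authors' deposited log2 values (adjusted p = 0.0453). Idi1 (0.18), Mvk (0.10) and Fdps (-0.29), the other measured genes of this group, were not called either.

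Squalene is made from farnesyl diphosphate and then closed into lanosterol. None of these 3 genes passed the threshold with limma, and none had an unadjusted p under 0.05. Their responses were 0.24 for Lss, the cyclase, 0.16 for Fdft1, squalene synthase, and 0.14 for Sqle, squalene epoxidase. Lss read 12.35, 12.02, 12.44, 12.47 and 12.23 in untreated skin and 12.36, 12.76, 12.39, 12.81 and 12.84, 12.34 and 12.41 in IMQ skin. Its 3 high values were those of Tlr7-/- and Tlr7-/-Tlr9-/- with IMQ, while the other IMQ arrays lay within the untreated range. Sqle read 13.96, 14.19, 14.25, 13.98 and 14.09 in untreated skin and 14.13, 14.28, 14.36, 14.26 and 14.25, 14.17 and 14.14 in IMQ skin. Every genotype was higher with IMQ, by 0.07 to 0.27, but the 2 sets of arrays overlapped.

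Of the 8 enzymes after lanosterol only Cyp51 was called on the probes used, and the median response of the 8 was 0.11. Cyp51, the lanosterol demethylase, read 13.01, 12.82, 13.23, 13.07 and 12.88 in untreated skin. In IMQ skin it read 13.87, 13.90, 13.78, then 13.68 and 13.63, then 13.25 and 13.24. All 7 IMQ arrays lay above the 5 untreated ones, the Card14-/- arrays just so. Cyp51 rose by 0.69 ± 0.12 (SE, n = 5; adjusted p = 0.0156 in limma), 1.61-fold. Its second probe gave 0.55.

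The next enzymes in line showed smaller or mixed responses. Hsd17b7, a ketosteroid reductase of the pathway, had an average response of 0.36 that was not called (adjusted p = 0.137 in limma). It read 14.17, 13.84, 14.42, 14.51 and 14.34 in untreated skin and 14.53, 14.87, 14.63, 14.72 and 14.68, 14.35 and 14.36 in IMQ skin. The Tlr7-/- pair held both the lowest and the highest value. Ebp, the sterol isomerase, had the smallest response of the group, 0.05 ± 0.07 (SE, n = 5). It read 14.46, 14.41, 14.52, 14.41 and 14.40 in untreated skin and 14.50, 14.52, 14.54, 14.57 and 14.62, 14.21 and 14.38 in IMQ skin, with overlap. Msmo1 (0.18) and Tm7sf2 (0.17) were not called, though Msmo1 was called at 0.44 with 75th percentile scaling (adjusted p = 0.0416).

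Sc5d and Dhcr7 had negative averages that missed the threshold on the probes used. Sc5d, the desaturase that makes 7-dehydrocholesterol, had a response of -0.46 and was lower in 5 of 5 genotypes. Its adjusted p of 0.0522 in limma was just outside the threshold. A second Sc5d probe gave -0.63, was also lower in 5 of 5 genotypes, and was called (adjusted p = 0.0122 in limma over all probes). Dhcr7, the last reductase before cholesterol, had -0.35 (adjusted p = 0.0817) and was 0.06 in Tlr7-/-Tlr9-/-. In the 3 genotypes whose arrays shared a slide, both were called, with Sc5d at -0.65 (adjusted p = 0.0418) and Dhcr7 at -0.53 (adjusted p = 0.0385). Nsdhl, a decarboxylating dehydrogenase, averaged -0.24 and was positive in Tlr7-/-Tlr9-/- (0.10) and Card14-/- (0.32).

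Both SREBP genes fell. Srebf1 read 14.67, 14.73, 14.79, 14.72 and 14.61 in untreated skin and 14.41, 14.45, 14.51, 14.34 and 14.36, 14.37 and 14.29 in IMQ skin. All IMQ arrays lay below all untreated arrays, and the response differed little between genotypes, with an SD of 0.0434. Srebf1 had a response of -0.29 ± 0.06 (SE, n = 5; adjusted p = 0.0222 in limma). With 75th percentile scaling it was -0.19 and lost the call (adjusted p = 0.0759). 

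Srebf2 read 11.00, 11.40, 11.32, 11.36 and 11.36 in untreated skin and 10.68, 10.93, 11.00, 11.23 and 11.20, 11.08 and 11.16 in IMQ skin. The untreated WT array lay low, among the IMQ arrays, although each genotype was lower with IMQ. The response was -0.30 ± 0.07 (SE, n = 5; adjusted p = 0.0348 in limma), but the second Srebf2 probe gave 0.14, and the mean of both probes -0.08 (adjusted p = 0.534). Insig1, a target of the SREBP factors that holds them in the endoplasmic reticulum, had the smallest response of the 3 regulators, 0.12 (adjusted p = 0.194). It read 8.40, 8.59, 8.38, 8.37 and 8.22 in untreated skin and 8.48, 8.70, 8.45, 8.43 and 8.54, 8.36 and 8.53 in IMQ skin, with overlap.

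**Figure D2:**
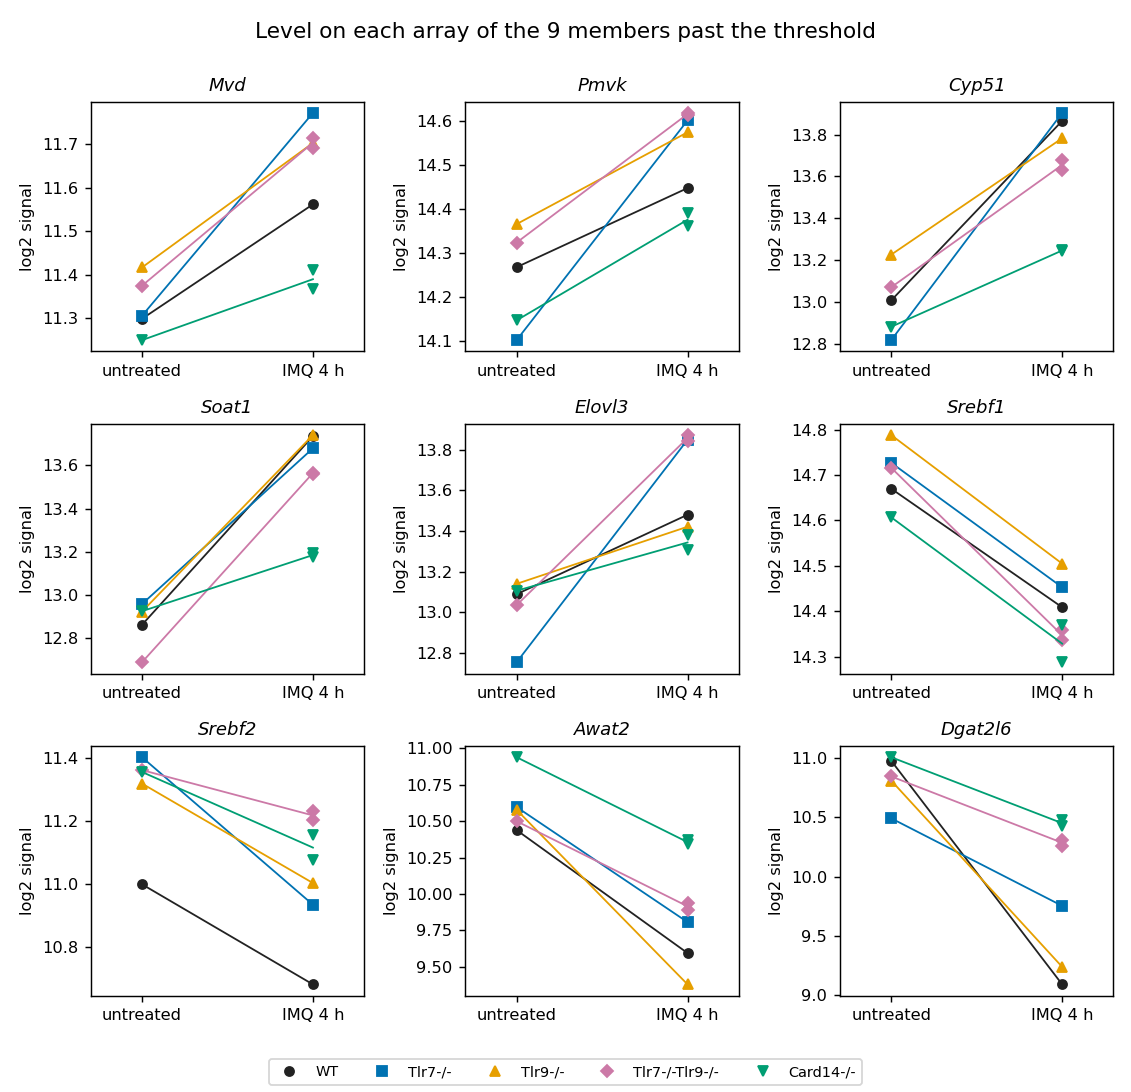
Level (log2 signal, y axis) of the 9 called members on each array, untreated at left and IMQ at right; a line joins the untreated array of a genotype to the mean of its IMQ arrays. Axes differ between panels and do not start at 0. Cyp51, Soat1 and Elovl3 have all IMQ arrays above the untreated ones, and Srebf1, Awat2 and Dgat2l6 have them below.

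Fatty acid synthesis showed no average call among its 5 genes with limma, and none of the 5 had an unadjusted p under 0.05. The median response was 0.02. Elovl6, which lengthens palmitate, had the largest value, 0.42 (adjusted p = 0.154). Fads1, the delta-5 desaturase, had the smallest, 0.02. It read 8.71, 8.44, 8.38, 8.91 and 8.52 in untreated skin and 8.63, 8.63, 8.54, 8.56 and 8.76, 8.62 and 8.58 in IMQ skin, with all IMQ arrays inside the untreated range. Fads2 had -0.12 and ran from -0.70 in Tlr7-/- to 0.58 in WT, on low levels of 6.30 to 7.70. Fasn, fatty acid synthase, had -0.15. Acly, which supplies acetyl-CoA, had 0.05 on its bright probe, but a second Acly probe gave 0.96 and was called (adjusted p = 0.0162 over all probes).

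The sebaceous genes split into 2 that rose, 2 that fell and 3 not called, with a median of -0.19. Of all genes 10.4% rose and 15.9% fell. Soat1, which esterifies cholesterol for storage and for sebum, rose. It read 12.86, 12.96, 12.92, 12.69 and 12.93 in untreated skin and 13.73, 13.68, 13.74, 13.56 and 13.57, 13.18 and 13.20 in IMQ skin. All 7 IMQ arrays were higher, the Card14-/- pair least so. The response was 0.71 ± 0.11 (SE, n = 5; adjusted p = 0.0131 in limma), 1.63-fold, and all 4 kept probes of Soat1 were higher, by 0.57 to 1.44.

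Elovl3, an elongase of very long fatty acids found in sebaceous glands, rose too. It read 13.09, 12.75, 13.14, 13.04 and 13.11 in untreated skin and 13.48, 13.85, 13.42, 13.84 and 13.87, 13.38 and 13.31 in IMQ skin. The IMQ arrays were all higher, with the Tlr7-/- and Tlr7-/-Tlr9-/- arrays highest. The response was 0.57 ± 0.15 (SE, n = 5; adjusted p = 0.0433 in limma).

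The acyltransferase genes Awat2 and Dgat2l6 fell. Awat2, the wax synthase that joins fatty alcohols to fatty acids, read 10.44, 10.60, 10.58, 10.50 and 10.94 in untreated skin. With IMQ it read 9.59, 9.81, 9.38, then 9.89 and 9.94, then 10.34 and 10.37. No arrays overlapped, and the Card14-/- arrays were the highest on both sides. Awat2 fell by 0.80 ± 0.11 on the log2 scale (SE, n = 5; adjusted p = 0.0103 in limma), which is 1.74-fold lower. The second Awat2 probe gave -1.04 and was also called (adjusted p = 0.0267 over all probes).

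Dgat2l6, a related acyltransferase gene that lies near Awat2 on the X chromosome, read 10.98, 10.49, 10.81, 10.84 and 11.01 in untreated skin. With IMQ it read 9.09, 9.75, 9.24, then 10.31 and 10.26, then 10.42 and 10.48. The fall was deep in WT and Tlr9-/- and shallow in Tlr7-/-Tlr9-/- and Card14-/-. The average was -1.06 ± 0.24 (SE, n = 5; adjusted p = 0.0276 in limma), 2.09-fold lower. A second Dgat2l6 probe, dim and well above background on 8 arrays, gave 0.06.

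The 2 desaturase genes and the receptor of the group were not called. Scd1, which makes monounsaturated fatty acids, read 15.73, 15.68, 15.71, 16.14 and 15.84 in untreated skin and 15.85, 15.98, 15.64, 15.90 and 15.90, 15.88 and 15.91 in IMQ skin, with overlap. Its response was 0.03 ± 0.09 (SE, n = 5). Scd3, its paralog of sebaceous glands, had -0.38, and Mc5r, the melanocortin receptor that controls sebum output, had -0.18. Scd1 and Scd3 are close paralogs, so a probe of one may also read the other. With 75th percentile scaling Scd1 was called at 0.30 (adjusted p = 0.0432).

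**Figure D3:**
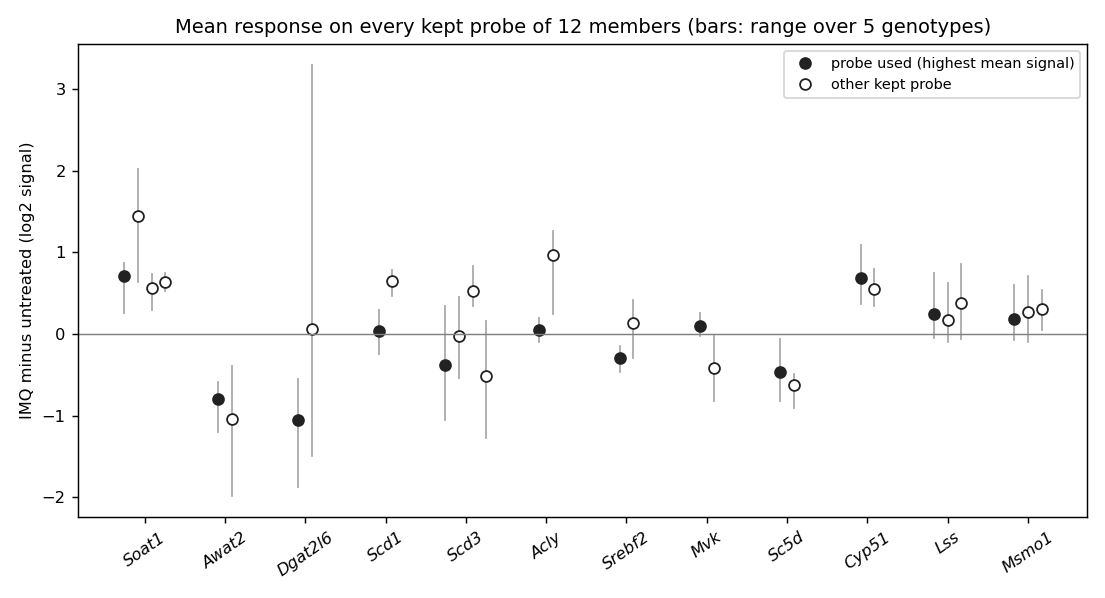
Mean response to IMQ over 5 genotypes (log2 signal, y axis) on each kept probe of 12 members, filled for the probe used and open for others; grey bars run from the lowest to the highest genotype. The 4 probes of Soat1 all lie above 0 and both probes of Awat2 below it, whereas the probes of Scd3, Mvk, Srebf2 and Dgat2l6 lie on both sides.

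Probes of a gene did not always go the same way. Of the 22 members with more than 1 kept probe, 13 had all probes of 1 sign. The other 9 were Dgat2l6, Ebp, Fads1, Fdft1, Hmgcs1, Mc5r, Mvk, Scd3 and Srebf2. In Scd3 the 4 probes gave -0.38, -0.02, 0.52 and -0.52, and the third of these was called as a rise (adjusted p = 0.0218 over all probes). In Scd1 a dimmer probe gave 0.65 (adjusted p = 0.0103) against 0.03 on the bright one. What these probes read apart from each other was not tested.

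The sterol genes were then set against the sebaceous genes. The 19 measured sterol genes are the enzymes with Insig1 and Srebf2, and Srebf1 and the fatty acid genes are in neither group. On average 3 sterol genes rose, 1 fell and the median was 0.14, while of the 7 sebaceous genes 2 rose, 2 fell and the median was -0.19. Over all genes 10.4% rose, 15.9% fell and the median was -0.08. The difference of the medians was 0.33. By genotype it was 0.28 in WT, -0.18 in Tlr7-/-, 0.61 in Tlr9-/-, 0.42 in Tlr7-/-Tlr9-/- and 0.12 in Card14-/-. The sterol median thus lay above the sebaceous median in 4 genotypes and below it in Tlr7-/-. Single genes overlapped, with average responses from -0.46 to 0.69 in the sterol and from -1.06 to 0.71 in the sebaceous group. The sterol medians stayed between 0.02 and 0.18, while the sebaceous medians ran from -0.59 in Tlr9-/- to 0.29 in Tlr7-/-. These medians describe chosen genes and were given no test.

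**Figure D4:**
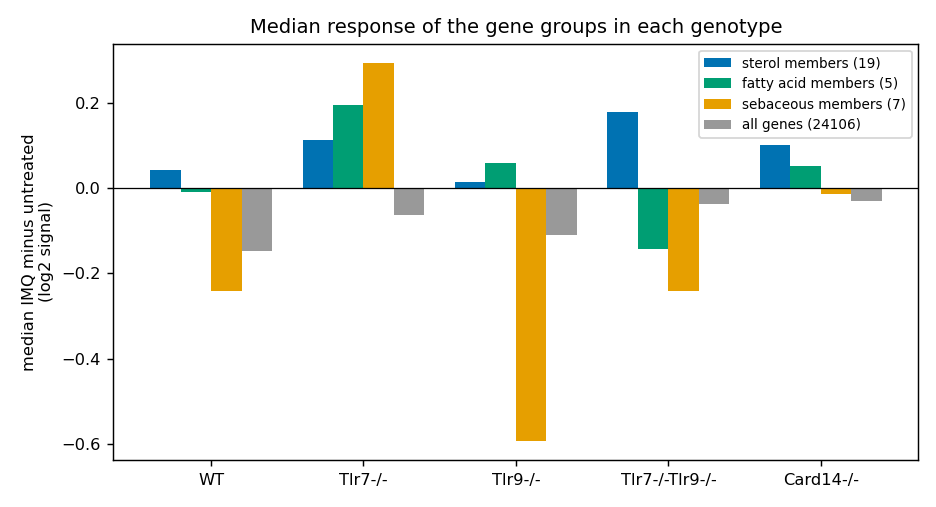
Median response to IMQ (log2 signal, y axis) of 19 sterol, 5 fatty acid and 7 sebaceous members and of all 24106 genes in each genotype; bars start at 0 and carry no error, since each is a median over genes of 1 response. The sebaceous bar is lowest in Tlr9-/- (-0.59) and highest in Tlr7-/- (0.29).

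Within single genotypes, a call needed an adjusted p under 0.05 and a change of at least 1 on the log2 scale. Single arrays are here assumed to vary like the repeat arrays of Tlr7-/-Tlr9-/- and Card14-/-. In WT Elovl6 rose and Dgat2l6 fell, 2 of 32 members (6.25%) against 14.4% of all genes. In Tlr7-/- Cyp51, Hsd17b7 and Elovl3 rose, 3 of 32 (9.38%) against 7.55%. In Tlr9-/- Scd3, Awat2 and Dgat2l6 fell, 3 of 32 against 9.06%. In Tlr7-/-Tlr9-/- and in Card14-/- limma called 0 members, against 6.17% and 4.42% of all genes. An unadjusted p under 0.05 was seen in 19 and 15 of the 32 members, and in 12151 and 10475 of all 24106 genes. The members' shares called lay near the background in Tlr7-/- and Tlr9-/- and below it in the other 3 genotypes.

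Elovl6 read 14.74, 14.97, 15.18, 15.25 and 14.80 in untreated skin and 15.86, 15.63, 15.61, 15.12 and 15.10, 14.82 and 14.88 in IMQ skin. WT, Tlr7-/- and Tlr9-/- with IMQ lay above every untreated array, and the other 4 IMQ arrays lay among the untreated ones. In WT Elovl6 rose by 1.12 ± 0.06 (SE from the repeat arrays; adjusted p = 0.00475 in limma). In WT Dgat2l6 had -1.88 ± 0.06 (adjusted p = 0.00383), the largest response in any genotype on the probes used. Other probes went further, with 3.29 in Tlr9-/- on the dim second probe of Dgat2l6 and 2.02 in WT on a second probe of Soat1.

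In Tlr7-/- skin Cyp51 rose by 1.09 (adjusted p = 0.00786), Elovl3 by 1.09 (adjusted p = 0.00909) and Hsd17b7 by 1.02 (adjusted p = 0.00821, all limma). The untreated Tlr7-/- array was the lowest untreated array in all 3 genes, and in Lss, Dgat2l6 and some other members. The same untreated array also had the highest hair follicle marker mean among untreated arrays, 12.04 against 8.99 to 10.58 on the others, and its IMQ partner had 7.57. Within this pair limma called 14 of 16 hair follicle markers lower, against 882 of all 24106 genes. The markers' part in these responses was not tested. With normexp background correction and in the authors' deposited log2 values Hsd17b7 (1.00 and 0.98) fell just short of a change of 1, and with the mean over probes Cyp51 (0.94) and Hsd17b7 (0.90) did. In Tlr9-/- skin Scd3 had -1.05 (adjusted p = 0.00769), Awat2 -1.20 (adjusted p = 0.00778) and Dgat2l6 -1.57 (adjusted p = 0.00716). Of the 16 hair follicle markers 7 were called lower in the Tlr9-/- pair, against 952 of all 24106 genes. The markers' part was not tested. The mean over the probes of a gene turned Dgat2l6 in Tlr9-/- to 0.86 (adjusted p = 0.0457) and brought Scd3 to -0.52 without a call, the Scd3 probes running from -1.27 to 0.40. Scd3 was also not called with normexp or in the authors' deposited values, at -0.98 in both. Without either Card14-/- repeat array, 0 of the 3 calls in Tlr7-/- and 0 of the 3 in Tlr9-/- were left. Scd3 read 11.07, 10.73, 10.95, 11.15 and 11.74 in untreated skin and 10.57, 11.06, 9.90, 10.66 and 10.66, 11.55 and 11.58 in IMQ skin. The Tlr9-/- array with IMQ was the lowest of the 12, and Card14-/- arrays were the highest on both sides.

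The study's knockouts ask whether a response needs the deleted gene, so the difference of the responses was tested directly. Against WT, the fall of Dgat2l6 was shallower in Tlr7-/-, by 1.15 ± 0.09 (SE; adjusted p = 0.0306 in limma), and this was the 1 member of 32 called, against 3.44% of all genes. Its untreated Tlr7-/- array was the lowest untreated one, at 10.49 against 10.98 in WT, so part of this difference lies in the untreated skin. Against WT, limma called 0 members in Tlr9-/- (background 1.06%). There 13 members and 5979 of all 24106 genes had an unadjusted p under 0.05. In Tlr7-/-Tlr9-/- 3 members differed from WT, against 10.2% of all genes, and in Card14-/- 3 did, against 10.5%. Each 3 of 32 is 9.38%, near the background. With any 1 of the 4 repeat arrays left out, 0 members were called in these differences. Such fits have fewer degrees of freedom, and the cause of the loss was not tested.

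In both, the 3 genes were Elovl6, Nsdhl and Dgat2l6. The response of Elovl6 minus that in WT was -1.27 ± 0.07 in Tlr7-/-Tlr9-/- (adjusted p = 0.0134 in limma) and -1.07 ± 0.07 in Card14-/- (adjusted p = 0.0144). That of Dgat2l6 was higher by 1.33 ± 0.08 in both (adjusted p = 0.0136 in both). Nsdhl read 9.73, 9.56, 9.64, 9.84 and 9.38 in untreated skin and 8.78, 9.38, 9.15, 10.01 and 9.88, 9.73 and 9.67 in IMQ skin. Its response was higher than in WT by 1.05 ± 0.12 in Tlr7-/-Tlr9-/- (adjusted p = 0.0222) and by 1.27 ± 0.12 in Card14-/- (adjusted p = 0.0170). A second, dimmer Nsdhl probe gave 0.25 in WT, -1.04 in Tlr7-/-Tlr9-/- and -0.34 in Card14-/-, the opposite order in both. The mean over both probes turned the Tlr7-/-Tlr9-/- difference to -0.12 and brought that of Card14-/- to 0.34 without a call (adjusted p = 0.153), and with normexp the Tlr7-/-Tlr9-/- difference was 0.92, also not called. The mean over probes also ended the call of Dgat2l6 in Tlr7-/- minus WT, at 0.94 (adjusted p = 0.139). Both comparisons share the 2 WT arrays, and in both the knockout's IMQ arrays were on the other slide than the WT arrays, so genotype and slide cannot be told apart here. Hair follicle markers differed from WT in the same contrasts, with 15 of 16 called lower in Tlr7-/-, 8 in Tlr9-/- and 12 in Tlr7-/-Tlr9-/-, and 6 called higher in Card14-/-. Of all 24106 genes, 541, 189 and 1345 were called lower in the same order, and 1243 higher in Card14-/-. The markers' part in the members' differences was not tested.

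**Figure D5:**
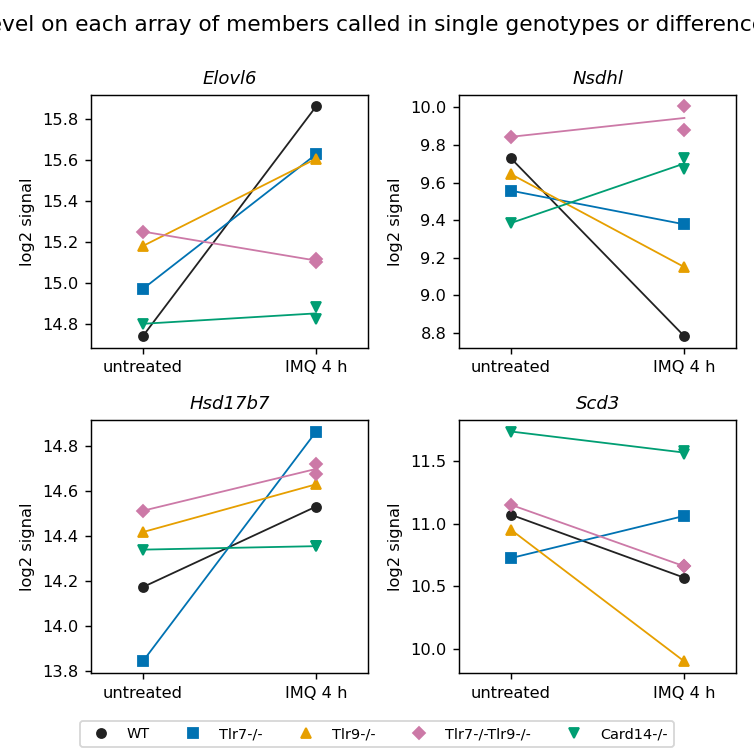
Level (log2 signal, y axis) of Elovl6, Nsdhl, Hsd17b7 and Scd3 on each array, untreated at left and IMQ at right, with a line from each untreated array to the mean of the IMQ arrays of its genotype. Axes do not start at 0. In WT, Elovl6 goes from 14.74 to 15.86 and Nsdhl from 9.73 to 8.78, the steepest lines of those panels.

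Dependence on Tlr7 was also read over all genotypes, as the response of Tlr7-/- and Tlr7-/-Tlr9-/- minus that of WT, Tlr9-/- and Card14-/-. With limma 0 of 32 members and 0 of 24106 genes (0%) passed an adjusted p of 0.05. At an unadjusted p under 0.05 there were 757 genes, among them 2 members, Elovl3 with a difference of 0.66 ± 0.17 (SE) and Lss with 0.51 ± 0.19. The adjusted p was 1 for both.

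Genes of the same pathways outside the set were read from 4 lists. Their counts stand beside 10.4% of all genes that rose and 15.9% that fell. Of 17 genes of sterol regulation and uptake 2 rose and 3 fell. Insig2 (-0.56), a second INSIG gene, and Mbtps1 (-0.33), a protease that releases the SREBP factors, fell. Of 12 genes of sterol efflux and oxysterols 2 rose and 3 fell. Ch25h, which makes an oxysterol, rose by 1.09 (adjusted p = 0.0100 in limma) and Cyp27a1, the sterol 27-hydroxylase, had -1.10 (adjusted p = 0.00715). Mylip, a ubiquitin ligase that sterols induce, had -0.52 and Scarb1, a receptor for high-density lipoprotein, 0.30. The medians of the 2 lists were -0.16 and -0.10, against -0.08 over all genes.

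Of 16 further fatty acid genes 2 rose and 3 fell, with a median of 0.04. Acacb, an acetyl-CoA carboxylase, rose by 0.63, while Acsl1 (-0.69), which activates fatty acids, Scd2 (-0.60), a desaturase, and Elovl1 (-0.27), an elongase, fell. Of 23 further genes of sebaceous glands and their lipids 2 rose and 6 fell, with a median of -0.04. Over all genes 10.4% rose and 15.9% fell. Gata6, a transcription factor of the sebaceous duct, had the deepest fall, -1.33 (adjusted p = 0.00513 in limma), and was lower in 5 of 5 genotypes. Alox12e (-0.84), a lipoxygenase, and Lrig1 (-0.74), a marker of stem cells above the gland, fell, and Fa2h, the fatty acid 2-hydroxylase, rose by 0.57.

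Markers of other cells in the pools were read too, beside 10.4% of all genes that rose and 15.9% that fell. Of 7 keratinocyte markers 0 rose and 2 fell, of 6 fibroblast markers 0 and 2, of 12 adipocyte markers 2 and 1, of 6 macrophage markers 2 and 0, and of 5 muscle markers 0 and 2. The keratinocyte mean was 16.50 to 16.64 on untreated and 16.09 to 16.41 on IMQ arrays, and the muscle mean 14.82 to 15.13 against 14.17 to 14.85. Of 16 hair follicle markers limma called 0 on average over genotypes, with 1 at an unadjusted p under 0.05. The genotypes went opposite ways. Within genotypes 14 were called lower in Tlr7-/-, 11 in Tlr7-/-Tlr9-/- and 7 in Tlr9-/-, while 9 were called higher in WT and 12 in Card14-/-. In the same order, 882, 542 and 952 of all 24106 genes were called lower, and 1860 and 743 higher. The mean of the hair follicle markers was 8.99 to 12.04 on untreated arrays and 6.69 to 12.28 on IMQ arrays. It was lowest in Tlr7-/-Tlr9-/- and highest in Card14-/- with IMQ. Their part in the members' responses was not tested.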

How the data were processed

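The 12 arrays (Agilent one-colour, mouse, 8x60K design) measured polyadenylated RNA of ear skin, with 200 ng of pooled RNA labelled per array, per the labels' protocols. Scanner signals, the processed intensity and the background intensity of each spot with flags for detection, were deposited as made by Agilent Feature Extraction 10.7.3.1, per the file headers. In the submitters' processing notes the version is 10.5.1.1, and limma is listed. The authors also deposited log2 values, normalized with limma after background subtraction, per the series' design text, and these were used as an alternative. The array files give probe positions on mm9.

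Here the processed intensity was put on the log2 scale, made equal in distribution across arrays (quantile normalization, limma 3.58.1, R 4.3.3), and control spots and 235 probes with an outlier flag were left out, none of them a member's. Each gene was read on its brightest kept probe. The average response was fitted on 10 group means with genotype as a block (4 residual degrees of freedom), Tlr7 dependence on 5 differences (3), and group contrasts on all 12 arrays (2), with lmFit and eBayes. Fits were tested on simulated data. Python 3.11.15 with pandas 2.3.3 and numpy 2.4.6 read the files, matplotlib 3.10.9 drew the figures, and data.table (version 1.17.8) served in R.

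Every member is named with its average response. Levels on every array are given for members called in the average, in a genotype or in a difference, and for the largest and smallest average response of each role group. Of other lists, up to 4 called genes with the largest responses are named. A few called genes that this rule covers are not reported here. Members and lists were chosen with earlier results of these data known. Alternatives covered scaling, background correction, the deposited values, the filter on dim probes, the mean over probes, slide, repeat arrays and leaving out genotypes or arrays. Fitting each probe on its own was added after the data were seen.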

Additional observations from a re-analysis of the deposited data

Results flagged for a closer look

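In a group of 5 genotype responses, a value was singled out when its gap to the nearest other exceeded 0.71 of the whole range, Dixon's limit, which chance exceeds in about 1 of 20 groups. Of 32 members tested, 3 had such a value. The response of Insig1 was 0.22 in Card14-/- and 0.08 to 0.12 in the other genotypes. Its Card14-/- repeat arrays with IMQ lay apart, at 8.36 and 8.53, an SD of 0.121 against a median of 0.0226 over members. The response of Srebf1 was -0.37 in Tlr7-/-Tlr9-/- and -0.28 to -0.26 elsewhere. That of Soat1 was 0.26 in Card14-/- and 0.72 to 0.87 elsewhere, and its 4 probes were each lowest in Card14-/-. Card14-/- and Tlr7-/-Tlr9-/- are the genotypes with IMQ arrays on the other slide, and the part of the slide was not tested in these values.

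In 7 cases the response of a member differed from WT by the fitted contrast. Dgat2l6 differed by 1.15 in Tlr7-/-, 1.33 in Tlr7-/-Tlr9-/- and 1.33 in Card14-/-. Nsdhl differed by 1.05 in Tlr7-/-Tlr9-/- and 1.27 in Card14-/-. Elovl6 differed by -1.27 and -1.07 in the same genotypes. All 7 share the WT arrays, whose responses were -1.88 in Dgat2l6, -0.95 in Nsdhl and 1.12 in Elovl6.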

How the results depend on the processing

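Of the 9 members called on average, Awat2 kept its call in 15 of 15 alternatives, Cyp51 and Soat1 in 14, Dgat2l6 in 10, Mvd and Srebf1 in 9, Elovl3 and Srebf2 in 8 and Pmvk in 6, and none changed sign. With a genotype pair left out, the members called ranged from 1 to 7, those that rose from 0 to 3 and those that fell from 1 to 4. Without a filter on dim probes 3 rose and 3 fell, 18.8% of the members against 12.7% of all genes. In the 3 genotypes whose array pairs share slide 1, 2 rose, with 18.8% of the members called against 24.8% of all genes. With genotype and slide as blocks and repeat arrays counted singly, 16 were called and 9 fell. These 16 are 50% of the members, against 49.9% of all genes. With the mean over probes, 1 member was called in Tlr7-/-, 1 in Tlr9-/- and 0 in the Tlr7-/- difference from WT. The same setting turned Dgat2l6 in Tlr9-/- to 0.86 and Nsdhl in Tlr7-/-Tlr9-/- minus WT to -0.12. With 75th percentile scaling 1 member was called in Tlr7-/-Tlr9-/-, in place of 0. With 1 repeat array left out, calls in Tlr7-/- and in Tlr9-/- ranged from 0 to 3. Those in the differences of Tlr7-/-, Tlr7-/-Tlr9-/- and Card14-/- from WT were 0 in every case. Each of these fits had 1 degree of freedom left. The causes of the changes in this section were not tested. Sterol minus sebaceous medians ranged from 0.20 to 0.42, and Tlr7 dependence stayed at 0 calls in 11 alternatives. The number of all genes called ranged from 1384 to 12032 over these settings. The average response pairs the arrays of a genotype. No paired analysis was possible by replicate number, because each untreated group holds replicate 1 only.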
